A study of Mus musculus with 16 samples.

Results

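The comparison described here sets medullary thymic epithelial cells (mTEC) that carried the Aire-lineage label and a high level of surface MHC class II, RFP+ MHCIIhi, against mTEC with neither, RFP- MHCIIlo. It used 8 of the 16 libraries of the study, 4 per population, chosen by their sorting gate alone. Of 43432 genes in the count tables, 19617 passed the filter on low counts and were tested. The mice, C57BL6.Aire-CreERT2.Ai14 of mixed sex and 5 to 6 weeks of age, carried a tamoxifen-inducible Cre controlled by Aire and Ai14, a reporter that makes a red fluorescent protein (RFP) after Cre has acted. Every mouse had 2 mg of tamoxifen 7 days before the thymus was taken, and each library pooled the cells of 12 thymi, so no library stands for a single animal. Live cells without CD45 and with EPCAM were gated on both markers, RFP and MHC class II, which gave 4 populations with 4 libraries each. The other populations were RFP- MHCIIhi and RFP+ MHCIIlo, and all 4 shared genotype, tamoxifen and chase time. All libraries came from tamoxifen-treated mice with Cre.

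Medullary thymic epithelial cells display proteins of the whole body to developing T cells, so that T cells reactive to self are deleted or diverted. The nuclear protein Aire switches on many of these tissue-restricted genes in cells that have raised MHC class II and the co-stimulatory ligands, a stage called mature. Immature mTEC lie before that stage, and after it cells can lose Aire and take on features of skin, gut or tuft cells, the last being chemosensory epithelial cells. The label marks a cell in which Aire drove Cre while tamoxifen was present, together with its progeny. An unlabelled cell may therefore be a precursor, a cell of another lineage, or one that expressed Aire before or after the pulse or escaped recombination.

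In this diagonal comparison both sorting markers change at once, and the label and the MHC class II gate cannot be told apart within it. Each of the remaining populations splits it into 2 steps whose log2 differences add up. Through RFP- MHCIIhi these are RFP- MHCIIhi minus RFP- MHCIIlo, termed the MHCII step, and RFP+ MHCIIhi minus RFP- MHCIIhi, termed the label step. The other path, through RFP+ MHCIIlo, takes the label first and MHC class II second, and where its steps are given the path is named. The paths can divide a difference unequally. All steps share libraries with the diagonal comparison and with each other, and they are given beside it as values only. Since bulk RNA of sorted pools was measured, fewer cells of a type and less RNA per cell cannot be told apart.

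The 8 libraries held 10.35 to 17.63 M reads (median 13.715 M). Sorted cells numbered 129500 to 164000 per library in RFP+ MHCIIhi and 80500 to 102800 in RFP- MHCIIlo. Mitochondrial ribosomal RNA took 29.29 to 32.65% of reads in RFP+ MHCIIhi and 39.16 to 45.89% in RFP- MHCIIlo. Expression is given as counts per M (CPM) after TMM scaling, and the levels of different genes are not compared with each other because CPM is not corrected for gene length. In summed marker genes of other cell types 3 libraries stood above their companions: replicate 4 of RFP+ MHCIIhi for thymocyte and cortical epithelial genes, replicate 3 of RFP- MHCIIlo for mesenchymal, mesothelial and endothelial genes, and replicate 1 of RFP- MHCIIlo for parathyroid and tuft genes. For endothelial genes replicates 1 and 3 of RFP- MHCIIlo (224 and 273 CPM) were both above replicates 2 and 4 (142 and 135 CPM). Libraries of RFP+ MHCIIhi correlated with each other at r = 0.9853 to 0.9894 over genes, those of RFP- MHCIIlo at 0.9738 to 0.9809. The epithelial markers of the gate were at like levels: Epcam had a mean of 519.7 CPM in RFP+ MHCIIhi, against 467 CPM in RFP- MHCIIlo, with a log2 difference of 0.15 ± 0.07 (standard error). Its adjusted p was 0.0739 in the edgeR quasi-likelihood fit, and it passed the 0.05 threshold in 8 alternative analyses, with log2 differences of 0.15 to 0.39. Ptprc, which encodes CD45, was at 21.9 and 21.1 CPM and was not called. Of further epithelial genes Krt8 was called higher (0.34 ± 0.08), Cdh1 was called lower (-0.34 ± 0.08) and Krt18 was not called.

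Most tested genes differed. At an adjusted p under 0.05 in the edgeR quasi-likelihood test, 6919 genes (35.3% of those tested) were higher in RFP+ MHCIIhi and 6006 (30.6%) were lower, 65.9% in all. Over 2-fold, 4440 genes (22.6%) were higher and 2556 (13.0%) lower. The 4 libraries of each population did not overlap for 6529 genes (33.3%) in the higher direction and 5541 (28.2%) in the lower. Against this background a called gene is the usual case, and each gene list below is read against these shares and against the median log2 difference of all tested genes, 0.02. Scaling by library totals alone moved that median to 0.252 and the share of calls that were higher from 53.5% to 67.6%, with 8610 genes higher and 4128 lower. The lists and their members were chosen with earlier results of these data known, so their counts are descriptions and not independent tests.

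**Figure D1:**
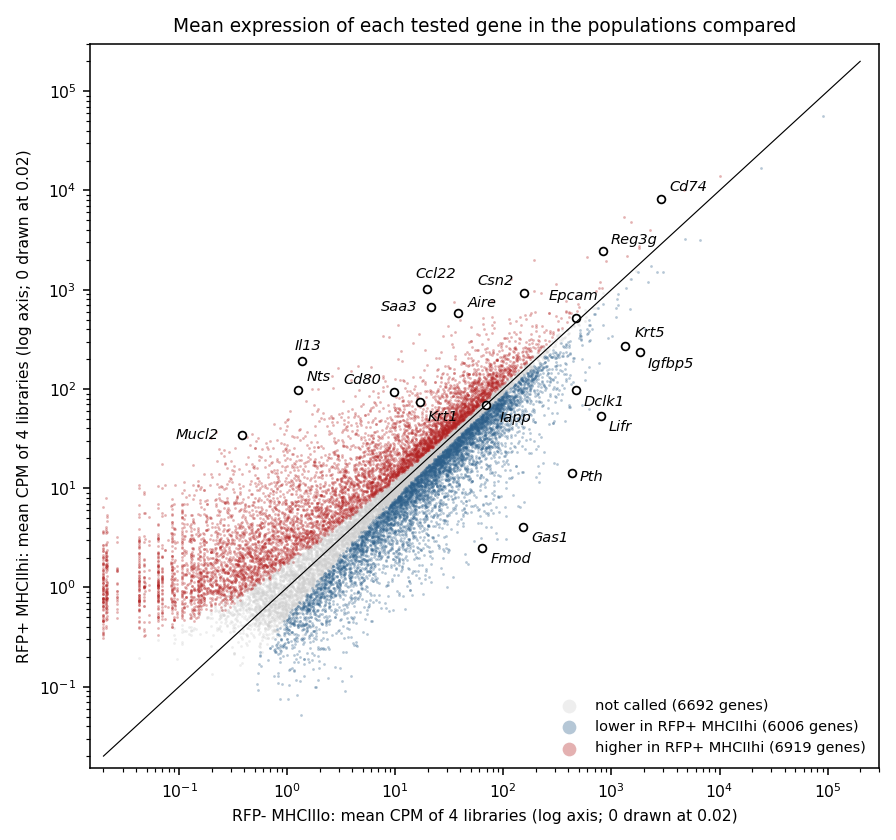
Mean CPM of 19617 tested genes in RFP- MHCIIlo (x axis) and RFP+ MHCIIhi (y axis), both on log axes, with 20 of the genes named in the text circled. Genes called higher (6919) lie above the diagonal and those called lower (6006) below it.

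The MHC class II genes served as a check of the gate, since surface MHC class II was the sorting marker. All 11 tested members of the class II presentation list were higher in RFP+ MHCIIhi, with a median log2 difference of 1.73 (0.02 over all genes). H2-Aa, the alpha chain of the I-A molecule (chr17:34282744-34287823, GRCm38), was at 4975, 5114, 5772 and 5665 CPM in the RFP+ MHCIIhi libraries and 1010.1, 1199, 1374 and 1695 CPM in RFP- MHCIIlo. The populations were well apart, with a log2 difference of 2.03 ± 0.14 (adjusted p = 8.23e-12), yet RFP- MHCIIlo was far from empty of class II transcripts. Cd74, the invariant chain that escorts class II molecules to endosomes, was at 8188 ± 446 CPM (SD, n = 4) against 2888 ± 459 CPM. H2-Ab1, the beta chain of I-A, was at 4825 ± 536 against 1518 ± 192 CPM. Larger log2 differences were measured for H2-Eb2 (3.61 ± 0.18), a class II beta chain gene, and for H2-Ob (3.32 ± 0.12) and H2-Oa (3.01 ± 0.15), which encode the subunits of the H2-O molecule that restrains peptide loading by H2-M. Smaller ones were measured for Ciita, the master coactivator of class II transcription, at 114 ± 5.79 against 73.7 ± 9.53 CPM (0.62 ± 0.09), and for H2-DMa, a subunit of H2-M (0.61 ± 0.11). Ciita was at 159.9 CPM in RFP- MHCIIhi, above both populations compared here, and at 21.6 CPM in RFP+ MHCIIlo.

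Because these genes rose together, the bases upstream of their start sites were read from the RefSeq promoter windows for GRCm38.p6. Class II promoters are known for an X box, bound by the RFX complex, followed by a Y box, an inverted CCAAT bound by NF-Y. Of the 11 listed genes 8 had a window, and H2-Ab1, Cd74 and Ciita did not. In 4 of those 8 the letters GCAAC, a core of the X box, were followed on the gene's strand by ATTGG, the inverted CCAAT, with 25 to 28 bases between them. The same arrangement with 20 to 30 bases between was found in 34 of 32851 windows (0.10%) when the 120 bases before the start were searched. Taken singly on either strand, GCAAC was in 16.13% of these windows, CCAAT in 21.29% and CTGATTGG in 2.84%. The 4 upstream stretches are shown 5′ to 3′ on the gene's strand, the 120 bases before the start, with GCAAC and the Y box in capitals.
H2-Aa, chr17:34287824-34287943, minus strand: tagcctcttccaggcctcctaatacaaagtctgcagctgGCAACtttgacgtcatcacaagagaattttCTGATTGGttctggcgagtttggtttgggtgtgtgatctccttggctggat
H2-Eb1, chr17:34305747-34305866, plus strand: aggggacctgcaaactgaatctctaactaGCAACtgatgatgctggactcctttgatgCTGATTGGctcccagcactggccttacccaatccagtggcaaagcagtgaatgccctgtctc
H2-Oa, chr17:34092259-34092378, plus strand: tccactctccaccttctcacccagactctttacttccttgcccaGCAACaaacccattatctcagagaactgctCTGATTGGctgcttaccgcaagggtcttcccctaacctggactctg
H2-Ob, chr17:34238785-34238904, plus strand: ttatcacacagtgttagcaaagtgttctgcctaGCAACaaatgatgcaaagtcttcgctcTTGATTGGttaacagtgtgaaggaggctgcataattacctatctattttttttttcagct
H2-Aa, H2-Eb1 and H2-Oa carried CTGATTGG, and H2-Ob carried TTGATTGG. The log2 differences of these 4 genes were 2.03, 1.83, 3.01 and 3.32. H2-Eb2 held CTGATTGG without GCAAC at that distance before it, H2-DMb1 and H2-DMb2 held CCAAT alone, and H2-DMa held no CCAAT. The start used for H2-DMa lies 3291 bases from the GENCODE start, and that for H2-DMb2 lies 1942 bases from it. For both genes the bases read are therefore not those just before the GENCODE start. A match of letters is a description and shows no binding.

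The endosomal proteases that cut antigens and the invariant chain were divided. Of 9 tested, 5 were higher, 3 lower and 1 not called, with a median log2 difference of 0.69. Ctss, the cathepsin S that trims the invariant chain in dendritic cells, was at 161 ± 20.7 CPM in RFP+ MHCIIhi against 32.3 ± 4.41 CPM in RFP- MHCIIlo (2.31 ± 0.13, adjusted p = 2.19e-13). Ctsz (2.11 ± 0.12), Ifi30, a thiol reductase of endosomes (1.70 ± 0.10), and the cathepsin gene Ctsh (1.04 ± 0.07) were also higher. Ctsl, the cathepsin L that does the same work in cortical epithelium, went the other way, with 146, 157, 162 and 273 CPM in RFP+ MHCIIhi, against 833, 771, 671 and 780.4 CPM in RFP- MHCIIlo (-2.05 ± 0.20, adjusted p = 2.72e-09). No overlap was seen between the populations, but replicate 4 of RFP+ MHCIIhi stood above its 3 companions, and without it the log2 difference was -2.30. The levels of Ctsl were 1104 CPM in RFP- MHCIIhi and at 193 CPM in RFP+ MHCIIlo, so that both labelled populations were low. The remaining members lower in RFP+ MHCIIhi were Ctsd (-0.23 ± 0.09) and Lgmn (-0.30 ± 0.12), and without RFP+ MHCIIhi replicate 3 the count of lower members was 1.

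All 12 tested genes of the mature mTEC list were higher in RFP+ MHCIIhi, with a median log2 difference of 3.01. Aire itself (chr10:78030022-78043610) was at 543, 622, 588 and 594 CPM in RFP+ MHCIIhi, against 16.3, 23.8, 42.6 and 69.0 CPM in RFP- MHCIIlo. The RFP+ MHCIIhi libraries lay close together, whereas those of RFP- MHCIIlo were spread widely, with replicate 4 highest and replicate 1 lowest. The log2 difference was 3.94 ± 0.36 (adjusted p = 1.07e-09). The MHCII step was 4.68 ± 0.37 and the label step -0.74 ± 0.31, with Aire at 979 CPM in RFP- MHCIIhi. Through RFP+ MHCIIlo, at 50.8 CPM, the label came to 0.42 ± 0.34 and MHC class II to 3.53 ± 0.35. Fezf2, a second transcription factor that drives tissue-restricted genes, was at 554 ± 24.6 against 158 ± 21.7 CPM (1.81 ± 0.10, adjusted p = 3.68e-13), with a label step of -0.00 ± 0.10 within MHCIIhi and 0.40 ± 0.10 within MHCIIlo.

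Both co-stimulatory ligands that engage CD28 on T cells were higher in RFP+ MHCIIhi. Cd80 was at 93.1, 93.2, 95.2 and 92.1 CPM in RFP+ MHCIIhi, against 9.04, 11.1, 8.36 and 10.6 CPM in RFP- MHCIIlo, 2 tight groups that did not overlap (3.25 ± 0.11, adjusted p = 5.33e-17). Cd86 was at 67.1, 58.6, 71.6 and 79.9 CPM against 2.34, 0.764, 1.36 and 2.67 CPM (5.29 ± 0.25, adjusted p = 1.42e-14). In RFP- MHCIIhi the means were 60.8 CPM for Cd80 and 24.0 CPM for Cd86, with label steps of 0.62 ± 0.09 and 1.53 ± 0.18. Within MHCIIlo the label steps were 1.02 ± 0.12 and 1.41 ± 0.33. Cd40, the receptor through which T cells signal to mTEC, was at 124 ± 16.8 against 17.9 ± 8.47 CPM (2.77 ± 0.23). The ligands of the inhibitory receptor PD-1, Cd274 and Pdcd1lg2, had log2 differences of 0.94 ± 0.08 and 1.37 ± 0.13, and Icosl one of 1.17 ± 0.29.

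**Figure D2:**
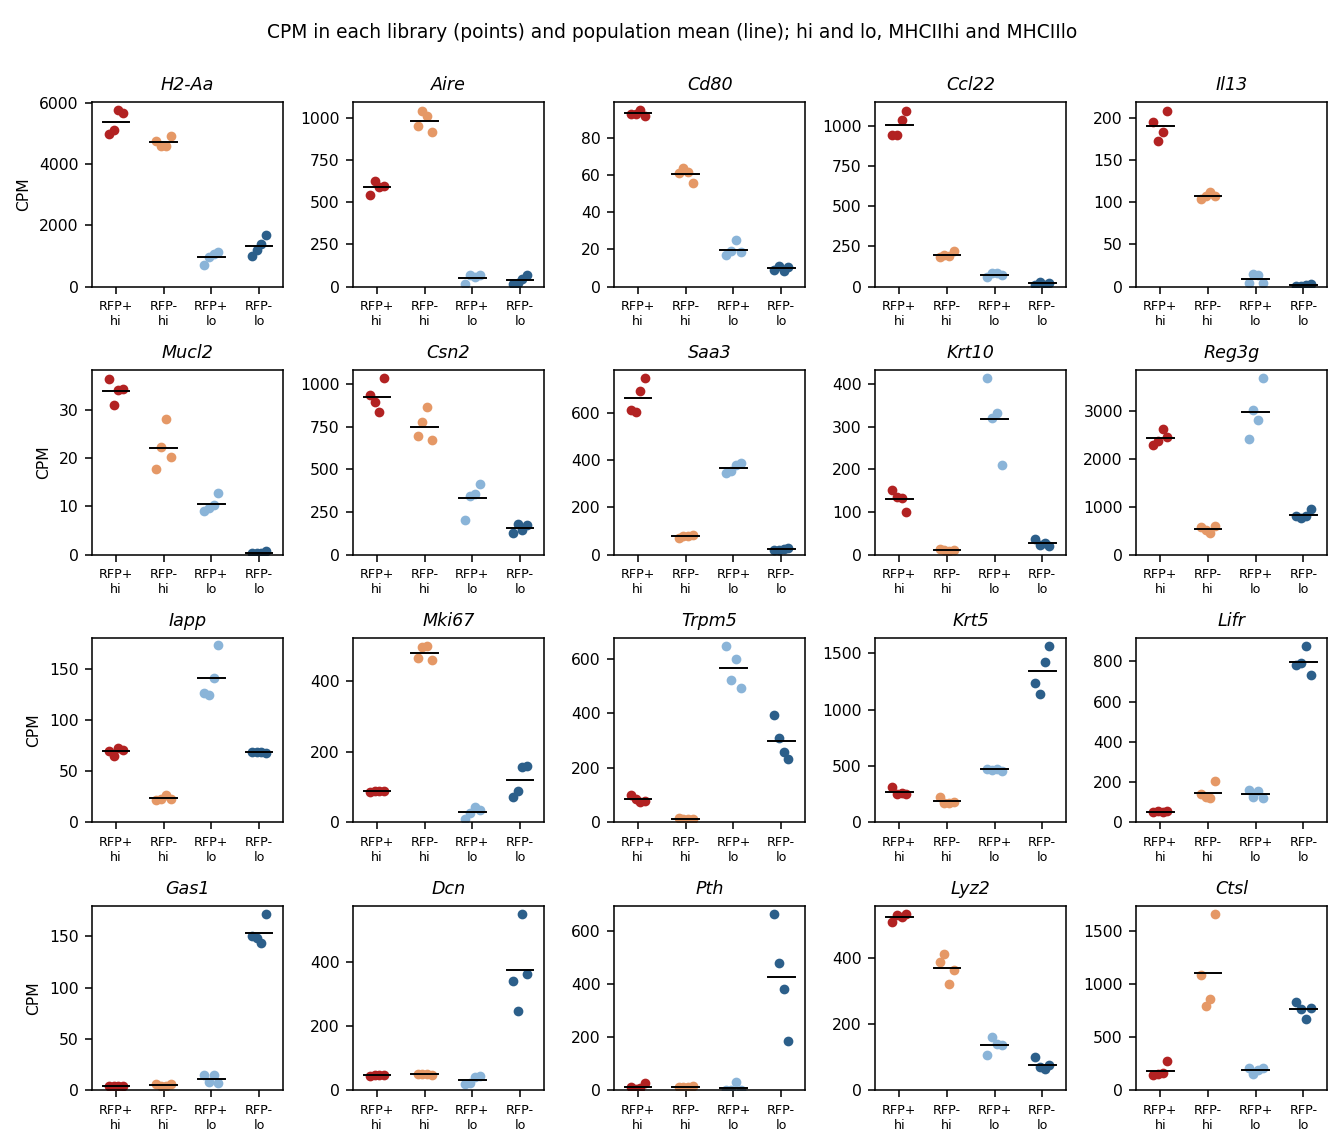
CPM of 20 genes in each of the 16 libraries, with a panel per gene, 4 points per population and a line at the population mean; axes start at 0. H2-Aa, Aire, Cd80, Ccl22, Il13, Mucl2, Csn2 and Lyz2 separate the MHCIIhi from the MHCIIlo populations, Krt10, Reg3g and Saa3 are higher with the label, and Krt5, Lifr, Gas1, Dcn and Pth are highest in RFP- MHCIIlo.

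Most genes of the list of partners of the Aire protein, which also held the regulators Deaf1 and Prdm1, did not follow Aire. Of 12 tested, 9 were lower in RFP+ MHCIIhi and 3 higher, with a median log2 difference of -0.57. Sirt1, a deacetylase that acts on Aire, was the exception in size: it was at 275, 280.0, 295 and 282 CPM in RFP+ MHCIIhi, against 31.6, 30.6, 36.1 and 35.5 CPM in RFP- MHCIIlo (3.08 ± 0.12, adjusted p = 5.31e-16). It stood at 294 CPM in RFP- MHCIIhi and at 50.1 CPM in RFP+ MHCIIlo, so the MHCIIhi populations lay together and the MHCIIlo populations well under them. Chd4, the helicase of the NuRD complex, was at 134 ± 6.96 against 199 ± 21.1 CPM (-0.57 ± 0.10). Deaf1, a further regulator of tissue antigens, was at 13.1 ± 1.45 against 23.2 ± 2.73 CPM (-0.83 ± 0.12). Atf7ip (-0.71 ± 0.09) and Hipk2 (-0.68 ± 0.10) were lower as well, and none of the 9 lower members passed 2-fold.

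The RANK, CD40 and NF-kB list, the signals that mature mTEC, had 13 of 17 tested genes higher and 2 lower, with a median of 0.84. Tnfrsf11a, which encodes RANK, was at 209 ± 21.0 against 122 ± 16.7 CPM (0.78 ± 0.11, adjusted p = 1.59e-06), and its decoy for the same ligand, Tnfrsf11b, had a log2 difference of 0.81 ± 0.08. The pair of the non-canonical branch, Relb and Nfkb2, were at 112 against 53.0 CPM (1.08 ± 0.09) and at 183 against 82.8 CPM (1.14 ± 0.08). Rel, a subunit of the canonical branch, had a log2 difference of 1.68 ± 0.08, and Nfkbia, the inhibitor that NF-kB itself induces, one of 1.71 ± 0.14. Canonical subunits Rela (-0.08 ± 0.08) and Nfkb1 (-0.11 ± 0.09) were not called. The lower members were Ltbr, the lymphotoxin beta receptor (-0.38 ± 0.09), and Tnfaip3, which ends NF-kB signals (-0.49 ± 0.10).

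Chemokine genes were mostly higher in RFP+ MHCIIhi, some by a wide margin. Of 20 tested, 14 were higher and 3 lower, with a median of 1.54. Ccl22, a ligand of CCR4 (chr8:94745590-94751699), was at 943, 947, 1036 and 1097 CPM in RFP+ MHCIIhi, against 10.9, 31.2, 11.9 and 25.0 CPM in RFP- MHCIIlo, a 50.9-fold ratio of the means (5.66 ± 0.23, adjusted p = 1.05e-15). No library of one population came near the other. RFP- MHCIIhi lay between them at 199 CPM, which splits the log2 difference into 3.32 ± 0.21 for MHCII and 2.33 ± 0.20 for the label. The path through RFP+ MHCIIlo, at 73.8 CPM, gave 1.89 ± 0.21 for the label and 3.77 ± 0.21 for MHC class II. Ccl17, the second CCR4 ligand, was at 50.1 ± 8.94 against 1.01 ± 0.512 CPM (5.59 ± 0.25). Ccl5 was at 345 ± 33.4 against 7.66 ± 1.28 CPM (5.48 ± 0.29), and it too stood lower in RFP- MHCIIhi, at 92.6 CPM. Xcl1, which attracts XCR1+ dendritic cells, was at 9.51, 8.69, 12.4 and 13.1 CPM against 0, 0, 0.512 and 1.63 CPM (4.27 ± 0.50), and replicates 1 and 2 of RFP- MHCIIlo had no read. Cxcl1, a neutrophil attractant, had a log2 difference of 3.29 ± 0.17. Cxcl12 (-2.27 ± 0.23), Cxcl14 (-2.91 ± 0.17) and Cx3cl1 (-0.40 ± 0.10) were lower.

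The 10 genes with the largest increases, among those reaching 20 CPM, mixed cytokines, hormones and genes of other tissues. Il13, the type 2 cytokine (chr11:53631324-53634702), was at 195, 173, 183 and 209 CPM in RFP+ MHCIIhi, against 0.957, 0.509, 1.45 and 2.58 CPM in RFP- MHCIIlo (7.08 ± 0.32, adjusted p = 5.58e-15). It was at 108 CPM in RFP- MHCIIhi and at 9.35 CPM in RFP+ MHCIIlo, and its steps were 6.27 ± 0.32 for MHCII and 0.82 ± 0.20 for the label. Through RFP+ MHCIIlo the label came to 2.70 ± 0.39 and MHC class II to 4.38 ± 0.26. Lta, which encodes lymphotoxin alpha, was at 22.7 ± 3.51 against 0.246 ± 0.143 CPM (6.47 ± 0.34). Dppa3, a gene of germ cells and the early embryo, was at 37.0 ± 5.64 against 0.218 ± 0.101 CPM (7.30 ± 0.31). The hormone and neuropeptide genes in this group were Rln3, relaxin 3 (6.46 ± 0.36), Gal, galanin (6.44 ± 0.26), and Ppy, pancreatic polypeptide (6.23 ± 0.45). Pla2g1b, the pancreatic phospholipase (6.27 ± 0.35), Mucl2, a mucin-like gene (6.45 ± 0.23), Ly6g, a surface antigen of neutrophils (6.60 ± 0.36), and Ceacam15 (7.24 ± 0.28) completed it. A choice by log2 difference favours genes with low means in RFP- MHCIIlo, and none of the 10 had a mean above 1.37 CPM there.

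Genes over 2-fold were also chosen by their difference in CPM, a choice that favours abundant and long transcripts and ranks no levels per length; for the higher direction these were B2m, H2-Aa, Cd74, H2-Ab1 and Ubd. B2m, the light chain of MHC class I, was at 8996, 9803, 10699 and 11104 CPM in RFP+ MHCIIhi, against 4256, 4318, 5184 and 5043 CPM in RFP- MHCIIlo (1.11 ± 0.10, adjusted p = 1.47e-09). Ubd, the ubiquitin-like protein FAT10, which marks proteins for degradation, was at 1781, 1804, 2054 and 2279 CPM against 146, 171, 226 and 220.3 CPM (3.38 ± 0.15, adjusted p = 5.13e-15). In both cases the lowest RFP+ MHCIIhi library stood well above the highest RFP- MHCIIlo library.

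Genes reported to need Aire for expression in mTEC were much higher in RFP+ MHCIIhi. Of 11 listed, Mup1 and Rbp3 did not pass the filter, and the 9 that did were all higher, with a median of 3.66. A level in any population could pass the filter, so genes low in RFP- MHCIIlo could be tested through the MHCIIhi populations. The same holds for the milk and saliva, liver and hormone lists below, and their counts and medians carry this limit. Ins2, one of the mouse insulin genes, was at 13.4, 11.8, 12.7 and 14.3 CPM in RFP+ MHCIIhi, against 0.213, 0, 0.0853 and 0.516 CPM in RFP- MHCIIlo (5.95 ± 0.35, adjusted p = 6.27e-13). Mucl2 was at 36.6, 31.1, 34.2 and 34.5 CPM against 0.319, 0.255, 0.256 and 0.688 CPM, with every RFP- MHCIIlo library under 1 CPM, although RFP- MHCIIhi was at 22.2 CPM. Tff3, a trefoil peptide of goblet cells, was at 52.6 ± 2.24 against 4.15 ± 2.08 CPM (3.66 ± 0.24), and S100a8, a calcium-binding protein of neutrophils, at 123 ± 15.7 against 11.7 ± 2.56 CPM (3.40 ± 0.24). Median steps of the 9 genes were 4.16 for MHCII and 0.87 for the label through RFP- MHCIIhi, but 1.23 for MHC class II and 2.17 for the label through RFP+ MHCIIlo, so that which step was larger depended on the path.

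Milk and saliva genes showed the largest median of the 33 lists, 4.83, with 14 of 16 tested genes higher and 1 lower (Amy1, an amylase, -0.89 ± 0.28). Members nearly absent from RFP- MHCIIlo, such as Lipf (4.10 against 0.0212 CPM), could be tested through their level in the MHCIIhi populations. The 5 casein genes tested lie within a stretch of chromosome 5, from Csn1s1 at 87666208 to Csn3 at 87932665, and all were higher. Csn2, beta-casein, was at 938, 896, 837 and 1039.8 CPM in RFP+ MHCIIhi, against 128, 179, 142 and 173 CPM in RFP- MHCIIlo, so that it remained readily detected in the latter (2.58 ± 0.16, adjusted p = 9.45e-13). Csn1s2a was at 27.5, 21.8, 27.1 and 26.2 CPM against 0.213, 0.424, 0.597 and 0.0860 CPM (6.21 ± 0.24). Csn1s2b had no read in any RFP- MHCIIlo library and 1.40, 0.875, 1.04 and 1.47 CPM in RFP+ MHCIIhi, at least 17.8-fold higher when 3 reads over the 4 libraries are taken as the floor. With Csn1s2b at that bound the list median was 4.20. The log2 differences of Csn1s1 (4.24 ± 0.35) and Csn3 (2.88 ± 0.21) lay between those of Csn2 and Csn1s2a. The gastric lipase gene Lipf (4.10 CPM) and Bpifa2, a secreted protein of the parotid gland (5.12 CPM), each had reads in only 1 RFP- MHCIIlo library.

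Plasma proteins of the liver followed, with 17 of 21 tested genes higher, 1 lower and a median of 3.39. Alb, serum albumin, was at 14.5, 12.2, 13.6 and 15.3 CPM in RFP+ MHCIIhi, against 0.425, 0.0848, 0.171 and 0 CPM in RFP- MHCIIlo (6.38 ± 0.47, adjusted p = 3.03e-11). All 3 fibrinogen chains rose together, Fga (5.21 ± 0.38), Fgb (3.90 ± 0.40) and Fgg (4.63 ± 0.22), as did the apolipoprotein genes Apoa2 (5.59 ± 0.42), Apob (3.63 ± 0.18) and Apoa1 (2.78 ± 0.10). Crp, C-reactive protein, was the member that was lower, at 11.9, 14.7, 12.3 and 13.1 CPM against 30.4, 30.6, 37.4 and 39.0 CPM (-1.40 ± 0.14, adjusted p = 5.19e-09). It was also low in the other populations, at 11.1 CPM in RFP- MHCIIhi and at 7.46 CPM in RFP+ MHCIIlo.

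Peptide hormone genes had 15 of 19 tested members higher, 1 lower and a median of 4.13. Pyy, peptide YY of the gut, was at 137 ± 21.6 against 7.74 ± 3.29 CPM (4.13 ± 0.18). Nts, neurotensin, was at 82.0, 82.8, 109 and 113 CPM against 0.638, 0.848, 2.39 and 1.20 CPM (6.21 ± 0.27), and Npy, neuropeptide Y, at 14.0 ± 1.92 against 0.197 ± 0.0722 CPM (6.05 ± 0.37). Iapp, the islet amyloid peptide, was at 69.6, 65.2, 73.0 and 70.3 CPM in RFP+ MHCIIhi, against 68.3, 68.6, 68.7 and 68.0 CPM in RFP- MHCIIlo, with no difference to be called (0.02 ± 0.09, adjusted p = 0.837). Behind these like levels were opposed steps of -1.54 ± 0.10 for MHCII and 1.56 ± 0.09 for the label, since RFP- MHCIIhi stood at 23.7 CPM. RFP+ MHCIIlo was at 141 CPM, and on that path too the signs were opposed, with 1.05 ± 0.09 for the label and -1.02 ± 0.09 for MHC class II. Scaling by library totals alone gave Iapp a called log2 difference of 0.26. The lower member was Pth, parathyroid hormone, which is described with the parathyroid genes.

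**Figure D3:**
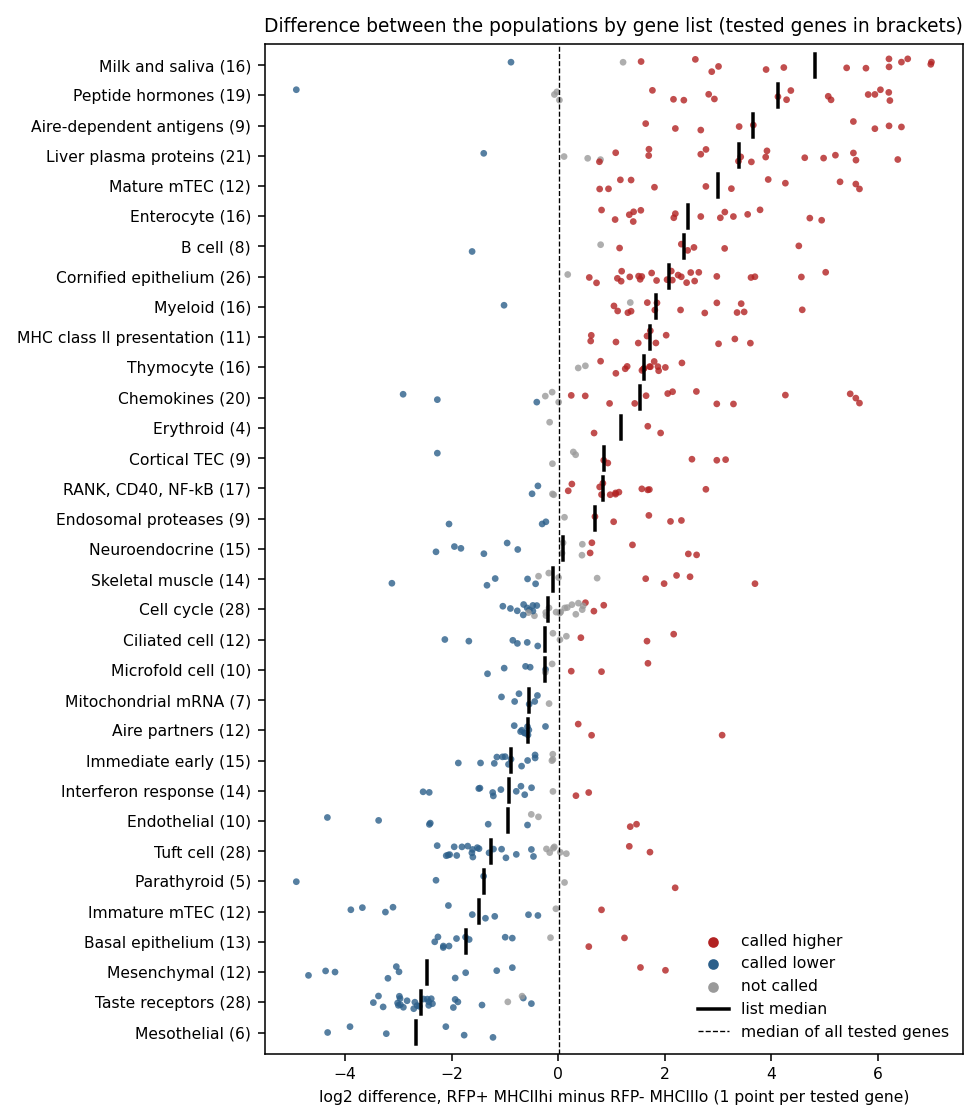
Log2 difference of every tested gene of 33 lists, 1 point per gene, ordered by list median (black bars), with the median of all tested genes as a dashed line at 0.02. Milk and saliva (4.83) and peptide hormone genes (4.13) are at the top, mesothelial (-2.67), taste receptor (-2.57) and mesenchymal genes (-2.46) at the bottom, and some genes are in more than 1 list.

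More genes were detected in RFP+ MHCIIhi at equal depth. When each library was reduced to 5423323 protein-coding reads, the smallest total of the 8, protein-coding genes with at least 1 read numbered 18564, 18555, 18656 and 18624 in RFP+ MHCIIhi and 17435, 17489, 17910 and 17426 in RFP- MHCIIlo. The means of 18599.8 ± 48.2 and 17565.3 ± 231.7 (SD, n = 4) differed by 1034.5 genes, and the 2-sided exact permutation test gave p = 0.0286, the smallest it can give with 4 against 4. RFP- MHCIIhi lay in the range 18747 to 18962. The 100 genes with most reads took a larger share of protein-coding reads in RFP+ MHCIIhi, 17.30 to 18.19% against 13.71 to 14.80%. Every RFP+ MHCIIhi library came from more sorted cells (129500 to 164000) than any RFP- MHCIIlo library (80500 to 102800). An equal number of reads does not equalise cells, and the part of cell number in the genes detected was not tested.

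**Figure D4:**
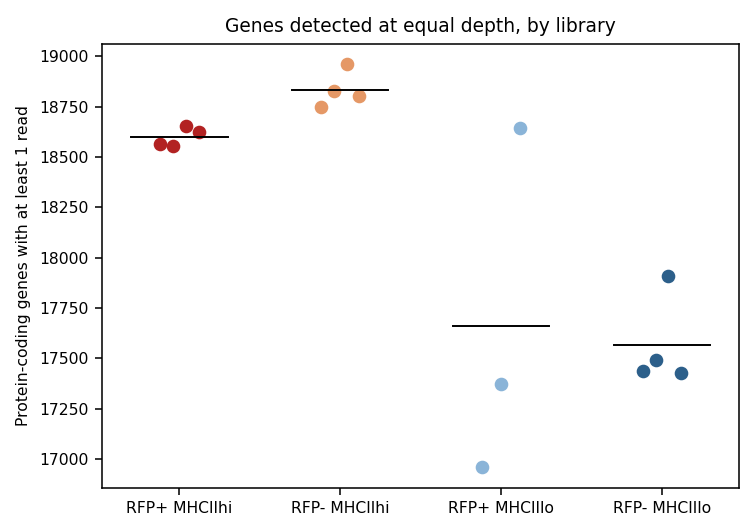
Protein-coding genes with at least 1 read after each library was reduced to the same number of reads (y axis, not starting at 0), with 1 point per library and a line at the mean. RFP+ MHCIIhi lies between 18555 and 18656 and RFP- MHCIIlo between 17426 and 17910; RFP+ MHCIIlo shows 3 libraries because its replicate 2 held fewer reads than this.

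Genes of the gut epithelium were higher in all 16 tested cases, with a median of 2.44. Here the label step was the larger on either path, with a median of 2.13 against 0.63 for the MHCII step, and of 1.86 against 0.13 through RFP+ MHCIIlo. Saa3, an acute-phase serum amyloid, was at 617, 605, 694 and 749 CPM in RFP+ MHCIIhi, against 17.3, 19.9, 22.3 and 26.5 CPM in RFP- MHCIIlo (4.95 ± 0.12, adjusted p = 8.35e-19). It was at 78.0 CPM in RFP- MHCIIhi and at 367 CPM in RFP+ MHCIIlo, and Saa1 had a like pattern (3.79 ± 0.10). The 2 genes are similar in sequence and may share reads. Reg3g, an antimicrobial lectin of the intestine, was at 2434 ± 138 against 830.0 ± 77.5 CPM (1.55 ± 0.12), yet at 533 CPM in RFP- MHCIIhi and at 2982 CPM in RFP+ MHCIIlo. Its MHCII step was -0.64 ± 0.11 and its label step 2.19 ± 0.12, and through RFP+ MHCIIlo they were -0.29 ± 0.11 and 1.84 ± 0.12. Alpi, the intestinal alkaline phosphatase, was at 9.13 ± 0.748 against 0.321 ± 0.284 CPM (4.73 ± 0.33), and Hnf4a, a transcription factor of gut and liver, at 10.9 ± 0.958 against 4.31 ± 1.19 CPM (1.34 ± 0.17).

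The cornified epithelium list, genes of the outer layers of skin, had 25 of 26 tested genes higher and a median of 2.08, with Dsg1a, a desmoglein, not called (0.18 ± 0.09). Krt10, a keratin of the layers above the basal one, was at 153, 135, 132 and 101 CPM in RFP+ MHCIIhi, against 37.2, 22.1, 25.9 and 20.3 CPM in RFP- MHCIIlo (2.31 ± 0.18, adjusted p = 1.1e-10). Krt1, its partner in the filament, was at 93.7, 71.5, 74.1 and 57.5 CPM against 22.7, 16.5, 13.1 and 15.1 CPM (2.14 ± 0.18, adjusted p = 3.14e-10). For both keratins RFP- MHCIIhi was the lowest population, at 10.7 and 10.8 CPM, and RFP+ MHCIIlo the highest, at 319 and 261 CPM. Ivl, involucrin of the cornified envelope, was ordered in the same way, at 15.9 CPM in RFP+ MHCIIhi, 5.63 CPM in RFP- MHCIIlo, 4.84 CPM in RFP- MHCIIhi and at 52.0 CPM in RFP+ MHCIIlo. Other members did not share that order: Klk5, a protease of skin shedding, was at 16.4 ± 1.81 against 0.487 ± 0.337 CPM (5.02 ± 0.36) and at 20.1 CPM in RFP- MHCIIhi. Tgm3, the transglutaminase of hair and epidermis, was at 46.9 ± 6.90 against 3.65 ± 1.18 CPM (3.69 ± 0.19). The list medians of the steps were 0.29 for MHCII and 1.45 for the label, and through RFP+ MHCIIlo -1.25 for MHC class II and 3.20 for the label.

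Tuft cell genes were lower in RFP+ MHCIIhi, and on both paths the difference was the sum of opposed steps. Of 28 tested, 20 were lower, 2 higher and 6 not called, with a median of -1.26; the median MHCII step was -3.62 and the median label step 2.35, and through RFP+ MHCIIlo these were -2.45 and 1.12. Trpm5, the taste transduction channel, was at 100.2, 86.4, 75.6 and 78.9 CPM in RFP+ MHCIIhi, against 394, 309.8, 259 and 231 CPM in RFP- MHCIIlo (-1.81 ± 0.14, adjusted p = 4.09e-11). Its lowest mean was in RFP- MHCIIhi, 14.3 CPM, and its highest in RFP+ MHCIIlo, 565 CPM. Dclk1, a kinase that marks tuft cells, was at 113, 97.3, 86.8 and 89.8 CPM against 599, 503, 391 and 376 CPM (-2.27 ± 0.16), with 36.1 CPM in RFP- MHCIIhi and 779 CPM for labelled MHCIIlo cells. Il25, the tuft cell cytokine, was at 1.42 ± 0.405 against 5.82 ± 1.07 CPM (-2.04 ± 0.26), and Chat, which makes acetylcholine, at 6.12 ± 0.301 against 26.5 ± 8.52 CPM (-2.10 ± 0.19). Pou2f3, the transcription factor on which tuft cells depend, was at 82.7, 73.6, 66.6 and 64.2 CPM against 102, 89.9, 71.5 and 71.0 CPM, and these ranges overlapped (-0.22 ± 0.12, adjusted p = 0.12). With the replicate number as a block its log2 difference of -0.21 was called. The 2 higher members were Sucnr1, the succinate receptor (1.72 ± 0.37), and Kctd12 (1.33 ± 0.10). Among RFP- MHCIIlo libraries the summed level of the list ran from 2192 to 3363 CPM, against 1055 to 1256 CPM in RFP+ MHCIIhi, and it was highest in RFP+ MHCIIlo, at 4902 to 6846 CPM. Replicate 1 of RFP- MHCIIlo was the top library of its population, and without it 19 members were lower.

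Tested taste receptors were lower almost throughout. Of 38 listed, 28 passed the filter, and 26 of those were lower and 2 not called, with a median of -2.57. A level in any population could pass the filter, so receptors low in RFP+ MHCIIhi could be tested through the MHCIIlo populations. Untested members had few reads and most had lower means, such as Tas2r140 (0.0176 against 0.784 CPM). Some went the other way, such as Tas1r2 (0.406 against 0.0481 CPM). Tas2r108, a bitter receptor, was at 4.37, 3.44, 4.01 and 2.95 CPM in RFP+ MHCIIhi, against 12.1, 8.99, 9.47 and 9.38 CPM in RFP- MHCIIlo (-1.43 ± 0.21, adjusted p = 2.76e-06). Among members with larger differences were Tas2r138 (1.62 against 11.6 CPM, -2.84 ± 0.25), Tas2r118 (1.17 against 9.41 CPM, -3.00 ± 0.29) and Tas2r119 (0.152 against 1.73 CPM, -3.47 ± 0.72). Tas2r126 (-0.95 ± 0.43) and Tas2r135 (-0.68 ± 0.59) were the members not called. These genes are alike in sequence, and their reads may be shared.

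Lists of further rare mTEC types were divided, as were all tested genes, of which 35.3% were higher and 30.6% lower. Among neuroendocrine genes 5 of 15 were higher, 6 lower and 4 not called, with a median of 0.09. Insm1, a transcription factor of endocrine cells, was at 63.9 ± 3.95 against 10.4 ± 4.41 CPM (2.60 ± 0.20), and Resp18, an endocrine secretory protein, at 134 ± 22.3 against 24.6 ± 1.83 CPM (2.44 ± 0.14). Chga, chromogranin A of secretory granules, was lower, at 38.3, 31.3, 31.6 and 42.7 CPM against 288, 195, 128 and 94.3 CPM (-2.30 ± 0.21). Neurod1 was not called, at 1.44 and 1.37 CPM.

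The microfold list, named for cells that sample antigen in the gut, had 3 of 10 genes higher and 5 lower (median -0.24). Gp2, a receptor for bacteria on microfold cells, was at 304 ± 25.3 against 614 ± 14.8 CPM (-1.01 ± 0.09), and it was at 79.1 CPM in RFP- MHCIIhi and at 1003 CPM in RFP+ MHCIIlo. Spib, a transcription factor of microfold cells, had a log2 difference of -0.53 ± 0.09, Sox8 one of -1.33 ± 0.08, and Marcksl1 went the other way (1.69 ± 0.14). In the ciliated list 3 of 12 genes were higher and 6 lower (median -0.24): the regulators Foxj1 (0.43 ± 0.10) and Mcidas (2.17 ± 0.27) were higher and the dynein genes Dnah5 (-1.68 ± 0.17) and Dnah11 (-2.13 ± 0.12) lower. The muscle list had 5 of 14 genes in each direction (median -0.09), near the shares of 35.3% higher and 30.6% lower over all tested genes. Myh3, an embryonic myosin, was at 23.6 ± 2.90 against 1.78 ± 0.849 CPM (3.70 ± 0.20), and Chrna1, the acetylcholine receptor of muscle, had a log2 difference of 1.64 ± 0.19. Acta1, skeletal actin, was lower, at 2.11 ± 0.406 against 18.6 ± 6.56 CPM (-3.12 ± 0.27), as was the muscle regulator Myog (-1.18 ± 0.20).

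Basal epithelial genes marked RFP- MHCIIlo. Of 13 tested, 10 were lower in RFP+ MHCIIhi, 2 higher and 1 not called, with a median of -1.74. Krt5, a basal keratin, was at 311, 252, 258 and 255 CPM in RFP+ MHCIIhi, against 1239.6, 1140.0, 1422 and 1567 CPM in RFP- MHCIIlo (-2.32 ± 0.11, adjusted p = 1.04e-14). Trp63, the p63 transcription factor of basal cells, was at 121, 125, 124 and 107 CPM against 348, 366, 416 and 392 CPM (-1.67 ± 0.08, adjusted p = 2.74e-14). Neither gene had overlapping libraries. Genes that anchor cells to the basement membrane were lower as well: Itgb4, integrin beta 4 (-2.16 ± 0.07), Lamb3, a laminin chain (-2.16 ± 0.11), and the cadherin gene Cdh3 (-2.26 ± 0.13). Against that trend Col17a1, a collagen of the same junctions, was at 102 against 43.0 CPM (1.24 ± 0.10) and Krt15 at 26.2 against 17.9 CPM (0.57 ± 0.23). Of these 2 higher members, 1 was lost when any of RFP+ MHCIIhi replicates 1, 2 and 3 or RFP- MHCIIlo replicates 2, 3 and 4 was left out.

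The immature mTEC list had 10 of 12 tested genes lower, 1 higher and a median of -1.49. Its best known member, the chemokine Ccl21a, was not tested, with a total of 1 read in the 8 libraries. Pdpn, podoplanin, was at 7.02, 5.89, 6.58 and 8.21 CPM in RFP+ MHCIIhi, against 60.1, 65.7, 65.0 and 71.0 CPM in RFP- MHCIIlo (-3.25 ± 0.13, adjusted p = 8.83e-16). Lifr, the receptor for leukaemia inhibitory factor, was at 52.1, 55.7, 49.6 and 56.8 CPM against 782, 792, 876 and 734 CPM (-3.89 ± 0.14, adjusted p = 1.55e-16), and it was the lowest in RFP+ MHCIIhi of all 4 populations, being at 148 CPM in RFP- MHCIIhi and at 142 CPM in RFP+ MHCIIlo. Fgfr2, the receptor that epithelium uses for FGF7 and FGF10, was at 18.1 ± 1.31 against 231 ± 13.0 CPM (-3.68 ± 0.13). Bmp4 was at 0.649 ± 0.216 against 5.77 ± 1.26 CPM (-3.10 ± 0.32), and Il7, the cytokine of early thymocytes, at 48.5 against 149 CPM (-1.61 ± 0.09).

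The 10 genes with the largest decreases, among those reaching 20 CPM, were Gas1, Thbd, Pth, Scn1a, Aebp1, Fst, Rcn3, Fmod, Fzd2 and Fat3. Gas1, a growth arrest protein and co-receptor for hedgehog ligands (chr13:60174405-60177365), was at 4.13, 4.43, 3.84 and 4.00 CPM in RFP+ MHCIIhi, against 151, 148, 144 and 171 CPM in RFP- MHCIIlo (-5.22 ± 0.17, adjusted p = 4.68e-17). Fat3, an atypical cadherin, was at 5.69, 7.35, 7.02 and 5.75 CPM against 146, 149, 142 and 130.1 CPM (-4.44 ± 0.15), and Fzd2, a WNT receptor, at 1.25, 1.98, 2.19 and 1.82 CPM against 44.3, 46.5, 47.4 and 42.8 CPM (-4.61 ± 0.18). For these 3 genes the 4 RFP- MHCIIlo libraries were close to each other. Thbd, thrombomodulin, was at 84.7, 71.9, 151 and 115 CPM in RFP- MHCIIlo (-5.08 ± 0.25), and Aebp1, a protein of the extracellular matrix, at 93.4, 54.4, 144 and 56.8 CPM (-4.84 ± 0.28). In both, replicate 3 was the highest, as it was for the summed mesenchymal, mesothelial and endothelial markers given further on; their part in these values was not tested. Fst, follistatin, which binds activin (-4.77 ± 0.17), Fmod, fibromodulin (-4.69 ± 0.18), Rcn3 (-4.74 ± 0.19) and the sodium channel gene Scn1a (-4.92 ± 0.31) were each under 4 CPM in every RFP+ MHCIIhi library. Low levels there are favoured by the choice by log2 difference.

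The same choice by difference in CPM named Igfbp5, Krt5, Ifitm3, Lifr and Nedd4 for the lower direction. Igfbp5, which binds insulin-like growth factors, was at 252, 237, 236 and 212 CPM in RFP+ MHCIIhi, against 1845, 2016, 1948 and 1550.4 CPM in RFP- MHCIIlo (-2.97 ± 0.12, adjusted p = 4.41e-16). Ifitm3, an antiviral membrane protein, was at 643 ± 34.6 against 1478 ± 132 CPM (-1.20 ± 0.10), and Nedd4, a ubiquitin ligase, at 341 ± 19.1 against 1012 ± 70.1 CPM (-1.57 ± 0.08).

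Interferon-response genes were lower in RFP+ MHCIIhi in 11 of 14 cases and higher in 2, with a median of -0.93. Isg15, a ubiquitin-like protein that interferon induces, was at 25.5, 23.2, 25.5 and 29.5 CPM in RFP+ MHCIIhi, against 81.6, 72.5, 76.8 and 56.5 CPM in RFP- MHCIIlo (-1.47 ± 0.11, adjusted p = 3.27e-11). Ifi44 (-2.54 ± 0.11) and Ifit3 (-2.42 ± 0.12) had larger decreases, and Irf7, which amplifies type I interferon, was at 48.2 ± 3.35 against 135 ± 3.85 CPM (-1.49 ± 0.10). The higher members were Ifit1 (0.33 ± 0.08) and Usp18, which removes ISG15 from proteins (0.57 ± 0.09). Chemokines that interferon gamma induces went the other way from this list, with Cxcl9 at 400.0 against 66.0 CPM (2.60 ± 0.23) and Cxcl10 at 506 against 161 CPM (1.65 ± 0.18).

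Immediate early genes, which many stimuli and tissue dissociation raise within minutes, were lower in 12 of 15 cases and not called in 3, with a median of -0.89. Fos was at 116, 123, 139 and 150.1 CPM in RFP+ MHCIIhi, against 275, 268, 312 and 359 CPM in RFP- MHCIIlo (-1.20 ± 0.10), Egr1 at 534 ± 11.9 against 1103 ± 102 CPM (-1.05 ± 0.08), and Jun at 168 ± 4.37 against 617 ± 42.0 CPM (-1.88 ± 0.08). Junb, Jund and Zfp36 were not called. Mitochondrial messages moved with these, as did the mitochondrial ribosomal share given above: of 7 tested, 6 were lower, with a median of -0.54. Among them mt-Co1, a subunit of cytochrome oxidase, was at 3006, 3410.3, 2934 and 3208 CPM against 6702, 8469, 6547 and 4558 CPM (-1.07 ± 0.19). The part of these mitochondrial values in the immediate early result was not tested.

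Cell cycle genes differed little between these populations although their steps through RFP- MHCIIhi were large. Of 28 tested, 3 were higher, 10 lower and 15 not called, with a median of -0.20, while the median MHCII step was 2.20 and the median label step -2.27. Through RFP+ MHCIIlo the medians were 1.12 and -1.15. Mki67, the Ki-67 antigen of dividing cells, was at 86.8, 87.7, 88.1 and 89.4 CPM in RFP+ MHCIIhi, against 72.4, 88.9, 158 and 159.6 CPM in RFP- MHCIIlo, and replicates 3 and 4 of the latter stood above all other libraries of the comparison (-0.45 ± 0.24, adjusted p = 0.109). RFP- MHCIIhi was at 479 CPM. Mki67 was called lower without the filter (-0.39), in a fit of the 8 libraries alone (-0.45) and without RFP- MHCIIlo replicate 1 (-0.62). Top2a, the topoisomerase of dividing cells, was at 53.5 and 51.7 CPM and was not called. The lower genes included 6 of 6 tested members of the MCM helicase that licenses replication, such as Mcm7 (-1.04 ± 0.12) and Mcm2 (-0.90 ± 0.16), and the higher ones were Aurka (0.86 ± 0.16), Bub1 (0.67 ± 0.27) and Cdk1 (0.51 ± 0.20). The count of higher members was 5 with the replicate block, 8 with library totals and 7 without the filter. Leaving out 1 library gave 1 higher member (without RFP+ MHCIIhi replicate 3 or 4, or RFP- MHCIIlo replicate 1 or 2), 6 (without RFP- MHCIIlo replicate 3) or 5 (without RFP- MHCIIlo replicate 4). The count of lower members was 6 without RFP- MHCIIlo replicate 3 or 4 and 4 with library totals.

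Markers of cells other than mTEC differed in both directions. Mesenchymal genes were lower in 10 of 12 cases and higher in 2, with a median of -2.46. Dcn, decorin of fibroblasts, was at 44.0, 48.5, 47.1 and 49.5 CPM in RFP+ MHCIIhi, against 342, 249, 550.0 and 362 CPM in RFP- MHCIIlo (-2.99 ± 0.21, adjusted p = 1.13e-11), and Mgp, matrix Gla protein, at 11.1, 10.4, 11.5 and 13.6 against 181, 179.6, 296 and 192 CPM (-4.19 ± 0.17). Replicate 3 of RFP- MHCIIlo was highest for both. Prelp was at 6.67 ± 0.385 against 137 ± 24.7 CPM (-4.37 ± 0.15), while Col1a1, collagen I, differed less, at 28.4, 25.5, 24.5 and 26.1 CPM against 59.5, 29.7, 101 and 41.7 CPM (-1.15 ± 0.31). The summed level of the 12 genes ran from 191 to 224 CPM in RFP+ MHCIIhi but from 849 to 1555 CPM in RFP- MHCIIlo. Pdgfrb (2.01 ± 0.16) and Thy1 (1.55 ± 0.26) were higher.

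All 6 tested mesothelial genes were lower, with a median of -2.67 and sums of 167 to 175 CPM against 414 to 630.2 CPM. Upk3b, an uroplakin of mesothelium, was at 3.66, 2.04, 3.29 and 3.58 CPM in RFP+ MHCIIhi, against 61.3, 26.6, 123 and 40.3 CPM in RFP- MHCIIlo (-4.33 ± 0.43), and Wt1, the Wilms tumour factor, at 0.584 ± 0.203 against 8.83 ± 5.17 CPM (-3.91 ± 0.41). Msln, mesothelin, held most of the sum and was lower by less (-1.22 ± 0.08). Endothelial genes were lower in 6 of 10 cases and higher in 2 (median -0.95, sums of 75.2 to 81.5 CPM against 135 to 273 CPM). Cdh5, VE-cadherin, was at 2.73, 1.92, 2.14 and 3.72 CPM against 17.9, 8.91, 15.7 and 12.8 CPM (-2.40 ± 0.29), Cav1, caveolin 1, had a log2 difference of -4.34 ± 0.25, and Pecam1 was not called (-0.37 ± 0.18). Pecam1 was called lower when the 8 libraries were fitted alone (-0.37) and when mitochondrial and ribosomal RNA genes were left out (-0.41).

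Parathyroid genes had 3 of 5 tested members lower and 1 higher. Pth (chr7:113385580-113388570) was at 13.3, 6.53, 10.9 and 26.5 CPM in RFP+ MHCIIhi, against 660.2, 480.0, 381 and 187 CPM in RFP- MHCIIlo (-4.92 ± 0.64, adjusted p = 4.09e-07). Among RFP- MHCIIlo libraries the spread was wide, with replicate 1 highest and replicate 4 lowest, and without replicate 1 the log2 difference was -4.63. RFP- MHCIIhi stood at 14.1 CPM, and the RFP+ MHCIIlo libraries at 0.864, 0.366, 32.2 and 0.249 CPM, of which replicate 3 alone was above 1 CPM. Chga too was highest in replicate 1 of RFP- MHCIIlo and lowest in replicate 4. Gcm2, the transcription factor that parathyroid needs, was at 0.857, 0.525, 0.439 and 0.912 CPM against 2.87, 1.95, 2.05 and 0.344 CPM (-1.40 ± 0.49, adjusted p = 0.0154). Its populations overlapped, and the call was lost in limma-voom (-1.11) and without RFP+ MHCIIhi replicate 3 (-1.22) or RFP- MHCIIlo replicate 1 (-1.10). The part of parathyroid, mesenchymal, mesothelial and endothelial cells in the genes lower in RFP+ MHCIIhi was not tested.

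**Figure D5:**
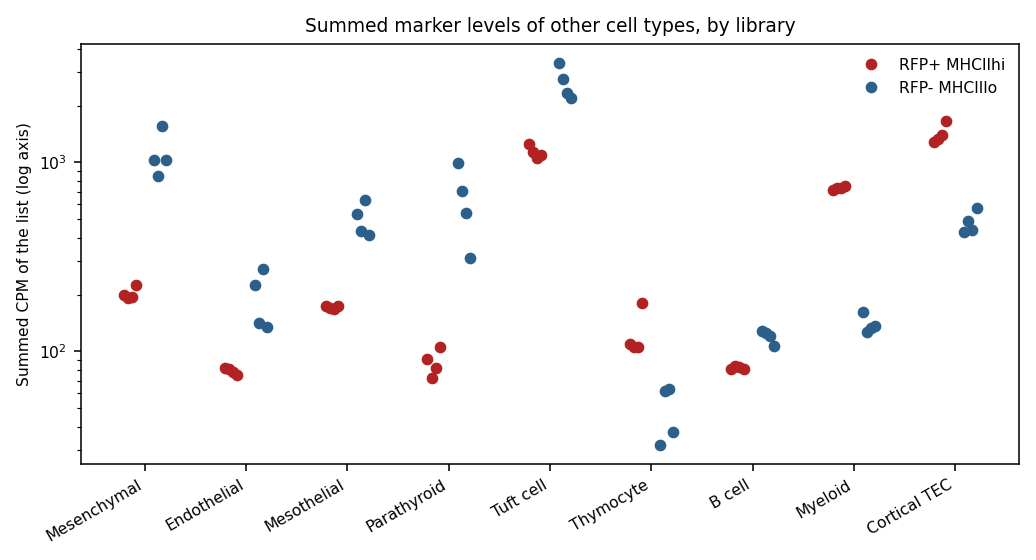
Summed CPM (log axis) of marker lists of 9 cell types in the 8 libraries, with a point per library. Mesenchymal, endothelial, mesothelial, parathyroid and tuft sums are higher in every RFP- MHCIIlo library, and thymocyte, myeloid and cortical epithelial sums in every RFP+ MHCIIhi library; replicate 4 of RFP+ MHCIIhi is the highest of its population for thymocyte genes.

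Genes of blood cells were mostly higher in RFP+ MHCIIhi. Thymocyte genes were higher in 14 of 16 cases and not called in 2, with a median of 1.61. Cd8a was at 9.04, 7.99, 8.34 and 15.7 CPM in RFP+ MHCIIhi, against 3.19, 3.48, 4.52 and 2.15 CPM in RFP- MHCIIlo (1.61 ± 0.36, adjusted p = 0.000454), and Cd3e, a chain of the T cell receptor complex, at 9.59, 7.58, 7.52 and 14.5 against 1.38, 3.73, 4.52 and 3.18 CPM (1.57 ± 0.39). Replicate 4 of RFP+ MHCIIhi was highest for both, as for the sum of the list (180 CPM against 105 to 109 CPM in its companions and 32.1 to 63.6 CPM in RFP- MHCIIlo). Without it the log2 difference of Cd8a was 1.34 and 13 members were higher. Rag1, the recombinase of immature lymphocytes, was at 13.9, 13.2, 15.7 and 26.5 against 4.68, 14.5, 13.9 and 6.11 CPM, with overlap (0.80 ± 0.35, adjusted p = 0.048). Its call was lost in DESeq2 (0.86), in limma-voom (0.87) and without mitochondrial and ribosomal RNA genes (0.75). It was also lost without RFP+ MHCIIhi replicate 3 (0.84) or 4 (0.53) and without RFP- MHCIIlo replicate 1 (0.59) or 4 (0.62). Thymocyte genes were higher still in RFP- MHCIIhi, for example 58.6 CPM for Cd8a, and the median steps were 3.42 for MHCII and -1.82 for the label. Through RFP+ MHCIIlo both medians were positive, 0.47 for MHC class II and 0.87 for the label.

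Myeloid genes were higher in 14 of 16 cases and lower in 1, with a median of 1.83 and sums of 719 to 750.4 CPM against 126 to 162 CPM. Lyz2, a lysozyme of macrophages, held most of that sum, at 511, 531, 524 and 536 CPM in RFP+ MHCIIhi, against 102, 69.7, 63.5 and 77.5 CPM in RFP- MHCIIlo (2.75 ± 0.13, adjusted p = 9.39e-15). Fcer1g, an adaptor of Fc receptors, was at 48.1 ± 3.61 against 1.99 ± 0.380 CPM (4.58 ± 0.23), and the integrin gene Itgam at 50.8 against 24.6 CPM (1.05 ± 0.10). Among macrophage markers Cd68 was at 21.3 against 8.21 CPM, C1qb at 18.4 against 1.76 CPM, Csf1r at 15.2 against 4.33 CPM and Adgre1, which encodes F4/80, at 7.41 ± 0.765 against 0.673 ± 0.426 CPM. Itgax, CD11c of dendritic cells, was at 1.66 ± 0.218 against 0.463 ± 0.283 CPM. C1qa was at 2.92 against 1.18 CPM (1.31 ± 0.46), and its call was lost without RFP+ MHCIIhi replicate 4 (1.14) or RFP- MHCIIlo replicate 2 (1.04). The lower member was Mpeg1, which encodes a pore-forming protein of macrophages (-1.02 ± 0.37), and its call was lost without RFP+ MHCIIhi replicate 2 or RFP- MHCIIlo replicate 3. In the B cell list 6 of 8 genes were higher and 1 lower, yet the summed level was lower in RFP+ MHCIIhi, at 80.7 to 83.9 against 107 to 128 CPM, with Cr2, the complement receptor 2 gene, alone at 33.7 against 104 CPM. Pax5 was at 3.38 ± 0.322 against 0.368 ± 0.248 CPM (3.13 ± 0.34). Cd79a was not called (0.80 ± 0.40); it was called higher with library totals (1.03) and without RFP+ MHCIIhi replicate 2 (0.98) or RFP- MHCIIlo replicate 2 (1.08). Of 4 tested erythroid genes 3 were higher, all under 6 CPM. Ptprc, carried by most blood cells, was not called, as given above, and the part of blood cells in these values was not tested.

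Cortical thymic epithelial markers gave 5 of 9 higher, 1 lower and 3 not called, with a median of 0.86. The proteases that define cortical cells were not called: Psmb11, the thymoproteasome subunit, was at 15.7, 19.0, 15.8 and 39.8 CPM in RFP+ MHCIIhi, against 17.0, 15.5, 14.9 and 26.3 CPM in RFP- MHCIIlo (0.28 ± 0.28), and Prss16 was at 33.2, 36.7, 27.3 and 79.9 against 24.9, 35.1, 28.5 and 51.9 CPM (0.33 ± 0.31). For both genes replicate 4 was the highest library of each population, and without the filter on low counts both were called higher, at 0.34 and 0.38. The 5 higher members included Ly75, a surface receptor of cortical epithelium and dendritic cells, at 100.2 against 55.4 CPM (0.86 ± 0.16). Foxn1, the master factor of thymic epithelium, was at 198 ± 8.49 against 104 ± 9.82 CPM (0.93 ± 0.08), and Tbata at 469 ± 42.7 against 82.2 ± 11.7 CPM (2.51 ± 0.14). The Notch ligand Dll4 was at 29.5 ± 2.85 against 3.29 ± 1.20 CPM (3.14 ± 0.21), and Ccl25, a chemokine for thymocyte progenitors, at 513 ± 81.2 against 65.1 ± 6.55 CPM (2.98 ± 0.16). In RFP- MHCIIhi, Psmb11 was at 194 CPM and Prss16 at 323 CPM.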

How the data were processed

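RNA sequencing was done on 4 sorted mTEC populations, of which 8 libraries are compared. The authors deposited raw counts per Ensembl gene, and the submitters' processing notes name STAR, GRCm38 and DESeq2. For the counting tool, strand setting and annotation release nothing is stated in the sources used here, so reads of overlapping, antisense or near-identical genes may be counted for either. Digestion with Liberase and DNase, sorting, poly(A) selection and amplification before library making are recorded in the labels' protocols.

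Symbols and coordinates came from GENCODE M21 for GRCm38 (42548 of 43432 identifiers matched; the others held 0.098% of reads). In R 4.3.3 and edgeR 4.0.16, filterByExpr (minimum count 10, minimum total 15) kept 19617 genes, libraries were scaled by TMM, and all 16 libraries entered 1 quasi-likelihood fit, so that the 4 populations share the estimate of spread. Log2 CPM for the correlations between libraries used a prior count of 2. Log2 differences and standard errors came from the quasi-likelihood fit, without that prior count. The p-values received the Benjamini-Hochberg adjustment over all tested genes with a threshold of 0.05. Library totals of 10.35 to 17.63 M limit genes under about 1 CPM most. The fit was tested on simulated data. Libraries of a population were checked for copies, and the chi-square per degree of freedom over pairs was 3.18 to 19.45, above the 1 expected of technical repeats.

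Named genes are the chosen marker genes of each list, called genes without overlap and with at least 20 CPM in the higher population (10 largest log2 differences per direction), called genes over 2-fold with the largest CPM difference (5 per direction), and up to 3 further members per list. Predicted, non-coding and mitochondrial genes were passed over in the gene-wide choices, and further examples from the lists were picked with their values known. The comparison, the members and the lists were chosen with earlier results of these data known. Upstream sequences are those of RefSeq for GRCm38.p6. Alternatives were other scalings, DESeq2 1.42.0, limma-voom 3.58.1, no or a stricter filter, the 8 libraries alone, a replicate block, removal of mitochondrial and ribosomal RNA genes, and leaving out each library.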

Additional observations from a re-analysis of the deposited data

Results flagged for a closer look

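In 18 of 324 groups of 4 libraries checked (5.6%) 1 library lay far from the other 3 by Dixon's criterion, about the 1 in 20 that chance alone flags. In RFP+ MHCIIhi, replicate 4 was high for Ctsl (273 CPM, others 146 to 162), Cd8a (15.7 CPM, others 7.99 to 9.04), Psmb11 (39.8 CPM, others 15.7 to 19.0) and Mcm7 (12.4 CPM, others 9.45 to 9.90), and low for Cav1 (4.28 CPM, others 5.46 to 5.65). Ctsl is in the endosomal protease list, Cd8a in the thymocyte list and Psmb11 in the cortical epithelial list. Mcm7 is in the cell cycle list and Cav1 in the endothelial list. Replicate 1 of that population was high for Krt5 (311 CPM) and low for Top2a (50.3 CPM), and replicate 3 was low for Dppa3 (28.5 CPM).

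Among RFP- MHCIIlo libraries, replicate 3 was high for Mgp (296 CPM, others 180 to 192) and for the number of protein-coding genes detected (17910, others 17426 to 17489). Replicate 1 was high for Tas2r108 (12.1 CPM) and Fga (0.425 CPM), and replicate 4 for Mucl2 (0.688 CPM) and Rln3 (0.946 CPM). Replicate 2 was low for C1qa (0.424 CPM) and Irf7 (129.7 CPM), and it alone had reads of Lipf (0.0848 CPM) and Bpifa2 (0.170 CPM). The values under 1 CPM rest on a few reads each.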

How the results depend on the processing

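The counts of 6919 higher and 6006 lower genes stayed within 1.5 times of these values under every alternative run: 5143 to 8610 higher and 4128 to 6378 lower, and 6653 to 6863 and 5562 to 5875 when 1 library was left out. Of the values of genes chosen by the naming rule under these alternatives (further examples in the text are not in this tally) 3170 kept their direction and call, 20 gained a call (8 genes), 13 lost one (4 genes: Gcm2, Rag1, C1qa and Cdh1) and none changed sign. Cdh1, E-cadherin, lost its call with library totals alone (-0.11). Replicate numbers were not treated as pairs: the 4 same-numbered libraries of the populations deviated together at correlations of only 0.073 to 0.097, although each was the highest for its number. With the replicate block 6996 genes were higher and 6066 lower. The difference in genes detected at equal depth was 1034.5 and ranged from 988.2 to 1149.5 without 1 library; it was 1426.4 for genes with at least 5 reads, 1213.8 over all genes other than mitochondrial and 1274.0 at 1000000 reads. Genes under about 1 CPM rest on few reads, and their single values are imprecise.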

Other observations

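Gene classes of the annotation are set here beside all tested genes, of which 35.3% were higher in RFP+ MHCIIhi and 30.6% lower, with a median of 0.02. Of 555 tested long intergenic non-coding RNAs 206 were higher in RFP+ MHCIIhi, near the share of all genes, and 124 lower, with a median log2 difference of 0.27. Among 433 genes of GENCODE's TEC class, mostly unspliced transcripts without an assigned function, 44 were higher and 210 lower, with a median of -0.79. Processed pseudogenes also had a negative median, -0.39, with 45 of 277 higher and 65 lower, under the shares of all genes in both directions. The 16787 protein-coding genes had a median of 0.05 with 6260 higher and 5169 lower, close to the shares of all genes.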
